A study of Macaca mulatta with 23 samples.

Results

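The long-arm ends of the autosomes were taken as the positions of human chromosomes 1 to 22 that lie within 2000000 bp of the largest position measured on their chromosome. They held 20217 of the 444312 measured positions (4.55%), or 4.72% of the 428538 autosomal ones, on 1.53% of the autosomal length of the human build hg19. They were compared with the other 408321 autosomal positions, within each chromosome, at equal local density of measured positions. The levels come from reduced representation bisulfite sequencing, which cuts DNA with MspI and so favours CpG-rich fragments, in which bisulfite then separates methylated from unmethylated cytosines. The DNA was from the central nucleus of the amygdala, an output station for fear and anxiety responses, of 23 rhesus monkeys (Macaca mulatta), with 1 library per monkey. The sampled side was the left in 11 monkeys and the right in 12. Ages ran from 1.1 to 2.13 years. Anxious temperament, a continuous trait built from behaviour and stress physiology, was scored from -1.48 to 1.43. The labels name no treatment and no strain, so the monkeys are described here by score, age and hemisphere. Their identifiers start with r in 12 monkeys and with B in 11, and the labels do not say what this means. They describe a dissected nucleus with no sorting of cells, so a level is an average over its neurons and glia.

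The last stretch of a chromosome arm before the telomere repeats is the subtelomere. In primates it is rich in GC, genes and tandem repeats, recombines often and is rebuilt often in evolution. Cytosines in CpG context are methylated in most of the genome and spared in CpG islands, the dense CpG clusters found at many promoters. In somatic cells subtelomeric CpG-rich DNA is known to carry much methylation, whereas in the germ line part of it is unmethylated. The coordinates used here are human. Human chromosomes 14 and 15, 20 and 22, and 7 and 21 each make up 1 chromosome in the macaque, and human chromosome 2 corresponds to a pair of macaque chromosomes. Which of the human long-arm ends are also chromosome ends in the macaque was not examined.

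The last measured position lay between 25 kb and 1028 kb from the hg19 end of its chromosome, with a median of 130.3 kb, and within 0.5 Mb of it on 20 of 22 chromosomes. The exceptions were chromosome 11, at 724.8 kb, and chromosome 14, at 1028 kb. Measured positions were denser per Mb at the end than elsewhere on 17 of 22 chromosomes, with a median ratio of 2.63. Chromosome 8 reached a ratio of 15.5 and chromosome 19, rich in CpGs throughout, had the lowest at 0.70. The number of members ran from 156 on chromosome 4 to 2726 on chromosome 9, and chromosomes 8 and 9 together held 25.8% of them. A member had a median of 20 other measured positions within 200 bp, against 17 for the other autosomal positions. The share of members without a value ran from 0.861% to 49.2% per monkey. Left 3 (49.2%) and right 9 (24.3%) had the highest shares.

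Long-arm ends were more methylated than density-matched positions of the same chromosomes in every monkey. Their level was 37.1% ± 1.83 (SD, n = 23) and that of the matched positions 27.2% ± 1.57 (SD, n = 23). The difference was 9.89 ± 0.439 percentage points (SD, n = 23) and was positive in 23 of 23 monkeys (sign-flip permutation test with 100000 resamples, 2-sided, p = 1e-05, the smallest these resamples can give). The monkeys are the replicates in this test and share the same positions, so it does not speak of positions that were not measured. Before matching, members averaged 38.0% and the other autosomal positions 30.4%, so the matching widened the difference.

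**Figure D1:**
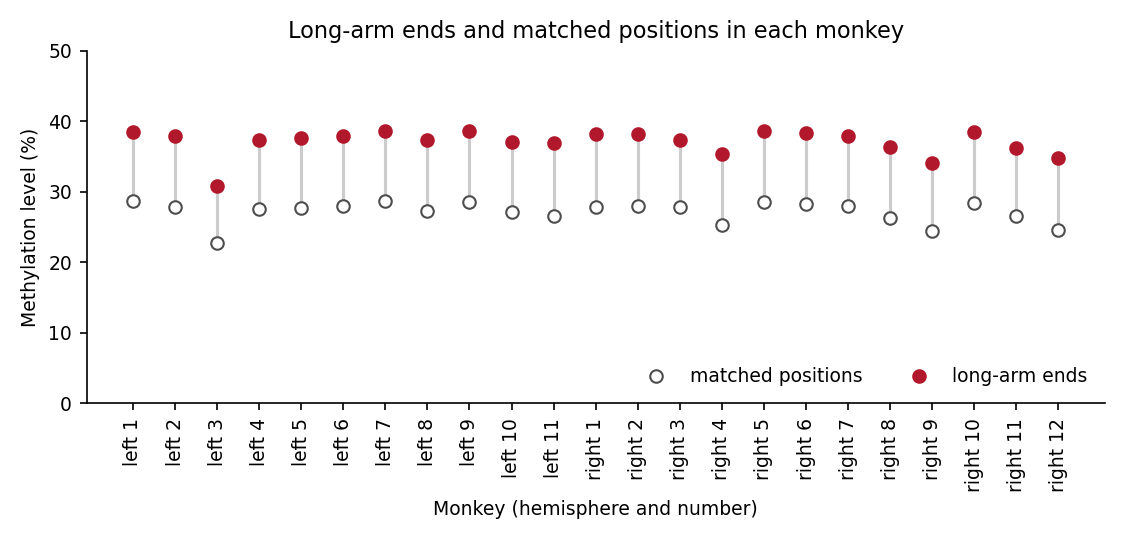
Methylation level (%) of the long-arm ends (filled) and of the density-matched positions of the same chromosomes (open) in each of the 23 monkeys, named by hemisphere and number. The filled point lies above the open one in every monkey, and both are lowest in left 3, at 30.9% and 22.8%.

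The difference had little spread over monkeys. Its lowest value was 8.11 points, in left 3, followed by 9.50 in right 3; the median was 9.97 and the highest value 10.4, in left 11. Left 3 is the library that lacked 49.2% of the members. At the 7030 members with a value in every monkey, where missing values play no part, the difference was 8.69 ± 0.160 points (SD, n = 23) and ran from 8.28, again in left 3, to 8.97, again in left 11. These complete positions were less methylated on both sides, at 26.1% ± 0.532 (SD, n = 23) for the ends and 17.4% ± 0.504 (SD, n = 23) for the matched positions. Without left 3 and right 9 the difference over all members was 9.99 ± 0.203 points (SD, n = 21).

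The excess came from fewer unmethylated and more fully methylated members. Of the members, 41.9% had a mean level under 5%, against 54.6% of matched positions. The share over 80% was 27.3% against 18.9%, and the share over 95% was 9.76% against 6.38%. Levels between 20% and 80% were also more frequent, at 20.9% against 17.1%. Counted directly, 10473 members lay under 20%, 4217 between 20% and 80%, and 5527 over 80%.

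The difference was present at every local density and was larger in the classes with 11 or more neighbours. At members with 4 to 5 other positions within 200 bp, the level was 51.1% ± 1.47 (SD, n = 23) against 47.5% ± 1.69 in matched positions, a difference of 3.63 ± 0.873 points. In classes of up to 10 neighbours, differences ran from 2.55 to 5.17 points. In the denser classes they ran from 7.12 points, at 31 to 40 neighbours, upward. At 11 to 15 neighbours the difference was 12.3 ± 0.736 points, and at 21 to 30 it was 12.1 ± 0.897. In the densest class, with 41 or more neighbours, 3473 members averaged 29.0% ± 2.13 (SD, n = 23) against 12.5% ± 1.37, a difference of 16.5 ± 0.889 points (SD, n = 23). In this class 30.5% of the members had a level over 50%, against 11.7% of the other autosomal positions of that density. The difference was positive in 23 of 23 monkeys in 11 of the 12 classes and in 22 of 23 in the class of 1 neighbour.

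**Figure D2:**
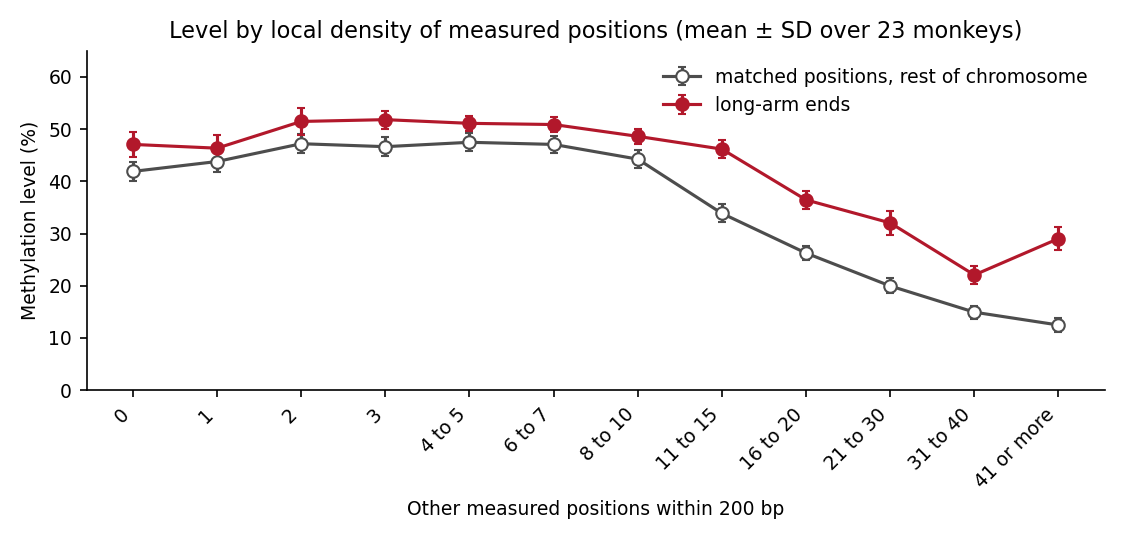
Methylation level (%, mean ± SD over 23 monkeys) by the number of other measured positions within 200 bp, at long-arm ends (red) and at positions of the same chromosomes outside them (grey). The ends lie above in every class; the grey curve falls to 12.5% at 41 or more neighbours, where the ends stand at 29.0%, above their 22.1% at 31 to 40.

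Methylated dense DNA was not spread evenly over the ends. Of the 18 chromosomes with members in the densest class, the end was higher than that density elsewhere on 11 and lower on 7. The 61 members of chromosome 1 averaged 84.6%, against 10.7% elsewhere on the chromosome. Those of chromosome 22 (551 members) averaged 48.7% against 16.8%, those of chromosome 19 (300 members) 46.9% against 32.0%, and those of chromosome 8 (732 members) 41.4% against 11.0%. The 7 lower ends were those of chromosomes 5, 6, 13, 14, 15, 17 and 21, and all of them but chromosome 14 held dense DNA that was nearly unmethylated. On chromosome 5, 144 members averaged 1.09% against 5.52% elsewhere, and on chromosome 13, 84 members averaged 0.879% against 4.85%. The 97 members of chromosome 15 averaged 1.02% against 6.42%, and the 156 of chromosome 17 averaged 1.29% against 11.8%. Chromosome 6 (52 members) had 1.26% against 3.01% and chromosome 21 (12 members) 0.947% against 6.66%. On chromosome 14, 200 members averaged 8.20% against 16.1%.

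Chromosome by chromosome, the end was more methylated than its matched positions on 21 of 22 chromosomes and less on 1. The difference was over 5 points on 16 of them and over 10 points on 9. It had the same sign in all 23 monkeys on 20 chromosomes, 19 higher and 1 lower. To put these counts beside the rest of the genome, each chromosome was also divided into further windows of 2 Mb, each compared in the same way with the matched positions of its own chromosome. Of the 984 other windows with at least 100 positions, 40.7% were higher than their matched positions, 22.7% by over 5 points and 10.4% by over 10 points. Their differences ranged from -26.4 to 44.5 points with an SD of 9.34 points and a median of -2.23, so 2 Mb windows vary widely everywhere. All 22 ends ranked above the median window of their own chromosome, 7 among the 3 highest, and on chromosomes 4, 12, 21 and 22 the end was the highest window.

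**Figure D3:**
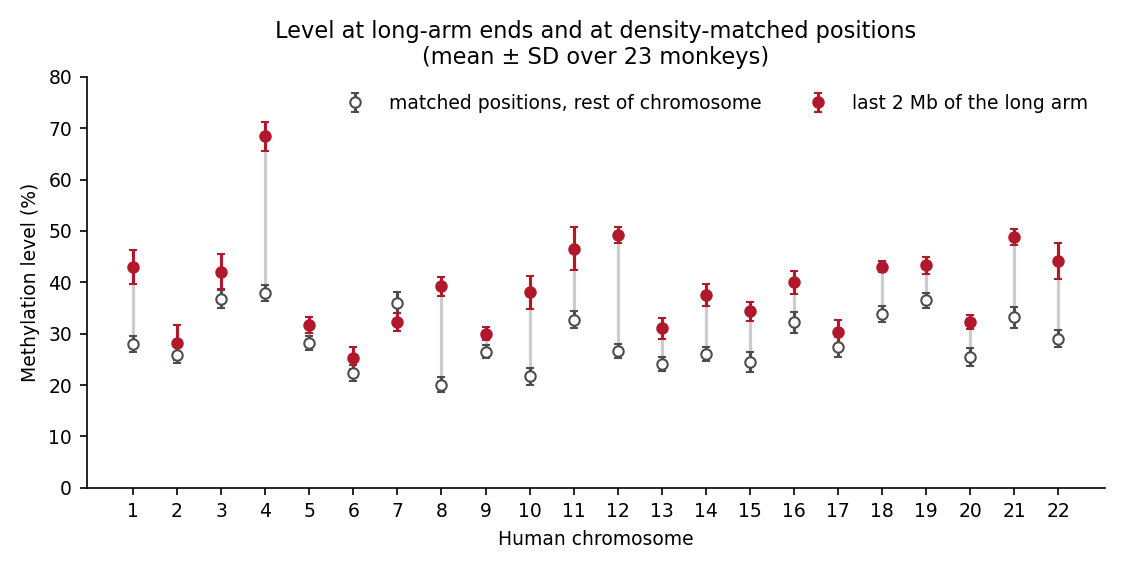
Methylation level (%, mean ± SD over 23 monkeys) at the long-arm end (red) and at density-matched positions of the rest of the chromosome (open), by human chromosome. The end is higher on every chromosome but 7, and the widest gap is on chromosome 4 (68.4% against 37.9%).

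The largest difference was on chromosome 4, whose window ends at 190781930 in band 4q35.2. In humans this band carries the D4Z4 macrosatellite, whose loss of methylation accompanies facioscapulohumeral muscular dystrophy; where the measured positions lie relative to that repeat was not determined. The end averaged 68.4% ± 2.90 (SD, n = 23) and its matched positions 37.9% ± 1.51, a difference of 30.4 ± 2.55 points that ran from 26.0 to 35.6 over monkeys. It rests on only 156 positions. The positions were also grouped into runs, in which neighbours lie at most 200 bp apart and a lone position counts as a run. Of the positions, 75.6% lay in runs with a mean level between 20% and 80% and 3.21% in runs under 20%. A run mean can average over unlike positions. Taken singly, 30.8% of the positions lay between 20% and 80%, 53.2% over 80% and 16.0% under 20%.

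Chromosome 12 followed, with its last position at 133815828 in band 12q24.33. Its 774 members averaged 49.2% ± 1.60 (SD, n = 23) against 26.6% ± 1.37, a difference of 22.6 ± 1.02 points with a range of 20.3 to 25.4. Runs with a mean level between 20% and 80% again held most of this window, at 63.4% of its positions. Taken singly, only 20.8% of its positions lay between 20% and 80%, with 40.4% over 80% and 38.8% under 20%. Chromosome 8, in band 8q24.3, had the third largest difference, 19.2 ± 0.893 points (SD, n = 23), over 2495 members. Its lowest monkey stood at 17.5 points and its highest at 20.6. Of its positions 16.6% lay in runs over 80% and 44.6% in runs under 20%, so runs of high and runs of low level both occurred there.

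The smallest differences were those of chromosomes 7, 2 and 17. The end of chromosome 7, with its last position at 159045787 in band 7q36.3, was the only one below its matched positions, at 32.3% ± 1.81 (SD, n = 23) against 36.1% ± 1.96. The difference of -3.77 ± 1.11 points was negative in all 23 monkeys. On chromosome 2, which ends at 242909720 in band 2q37.3, it was 2.48 ± 2.12 points (SD, n = 23) and positive in 20 of 23 monkeys, from -3.30 to 5.39. On chromosome 17, which ends at 81059116 in band 17q25.3, it was 2.92 ± 0.802 points and positive in all 23. Runs with a mean level under 20% held 51.7% of the positions on chromosome 2 and 53.2% on chromosome 17. Taken singly, 62.5% and 59.7% of the positions lay under 20%, against 51.8% of all members. This was not particular to the smallest differences: the end of chromosome 13, 6.94 points above its matched positions, had 61.0%.

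The excess was shared by most chromosomes in the last 0.5 Mb and was uneven further in. Set against matched positions more than 20 Mb from the last position, the final 250 kb were 14.5 ± 1.33 points higher (SD, n = 23) and the next 250 kb 17.0 ± 1.02 points. Each of these bins was higher on 18 of the 20 chromosomes with at least 10 positions in it. The bin from 0.75 to 1 Mb differed by only 0.818 ± 1.17 points and was higher on 7 of 17 chromosomes, whereas that from 1.25 to 1.5 Mb was 15.9 ± 0.756 points higher, on 13 of 18. The bin next to the limit, from 1.75 to 2 Mb, had the highest difference of all, 17.1 ± 1.04 points, on 12 of 17 chromosomes. Bins of 250 kb between 2 and 4 Mb ran from -2.80 to 15.1 points. From 5 Mb inward, the differences lay between -1.05 and 2.25 points. Across the limit of 2 Mb the difference fell from 17.1 points to 5.17 ± 1.14 points in the bin from 2 to 2.25 Mb. Inside the limit it fell likewise, from 15.9 points to 4.77 points in the bin from 1.5 to 1.75 Mb. Without matching, the 370 members in the last 50 kb inside the limit averaged 47.6%, with a median of 49.8%. The 103 positions in the first 50 kb outside it averaged 47.4%, with a median of 63%.

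**Figure D4:**
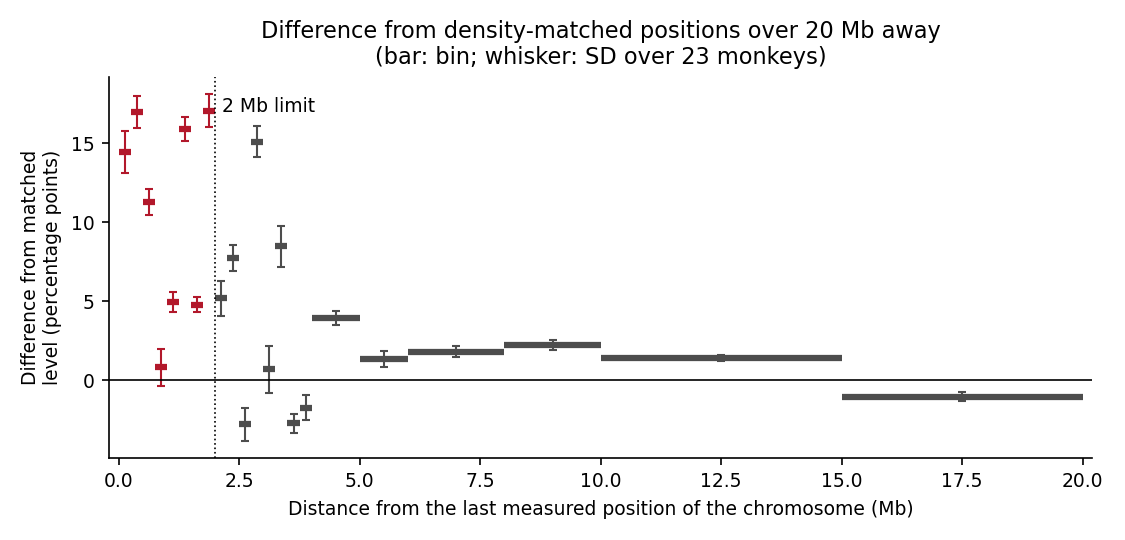
Difference in methylation level (percentage points, bars; whiskers are the SD over 23 monkeys) from density-matched positions over 20 Mb away, by distance from the last measured position (Mb). Bins inside the 2 Mb limit are red; the 2 outermost bins stand at 14.5 and 17.0 points, and bins beyond 5 Mb stand between -1.05 and 2.25.

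Pooled over positions, short-arm ends showed a smaller difference. On the 17 autosomes that are not acrocentric, the positions within 2 Mb of the smallest measured position (17004) were 2.82 ± 0.611 points above their matched positions (SD, n = 23). The 15866 long-arm members of the same chromosomes were 9.40 ± 0.376 points above theirs. The long-arm difference exceeded the short-arm one by 6.58 ± 0.413 points, in 23 of 23 monkeys (sign-flip permutation test with 100000 resamples, 2-sided, p = 1e-05, the smallest these can give). The monkeys share the same positions, so this p speaks of agreement between monkeys and not of chromosome arms in general. By chromosome it was the larger on 13 of 17. The exceptions were chromosomes 3, 7, 17 and 18. On chromosome 3 the short-arm end stood 36.8 points above its matched positions (163 positions) and the long-arm end 6.61. On chromosome 18 the short-arm end stood 21.3 points above (140 positions) and the long-arm end 8.97. The pooled values weight chromosomes by their positions, which differ between the arms. Chromosome 8 gave 2495 long-arm positions at 20.8 points and 413 short-arm ones at 19.5. Chromosome 19 gave 909 long-arm positions at 6.94 points and 4066 short-arm ones at -0.498. How much of the 6.58 points goes with this weighting was not tested.

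Runs of neighbouring positions show where the dense methylated DNA lies. From here on a run has 3 or more positions, and its level is the mean of its positions. The ends held 1306 such runs, 50 of them with 50 or more positions. Of these 50 long runs, 9 (18%) had a level over 80%, 17 (34%) lay between 20% and 80% and 24 (48%) under 20%. Among the 903 long runs elsewhere on the autosomes, 3.21% were over 80% and 76.4% under 20%. The median level of long runs was 25.9% at the ends and 1.42% elsewhere. For runs of 3 to 9 positions the medians were close, at 55.6% and 52.9%.

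The run with the most positions in any end has 201 in 1217 bp of band 8q24.3, 682 kb from the last position of chromosome 8. Its level was low in every monkey and ran from 3.91% through a median of 7.87% to 11.3%. The next has 183 positions at chr22:51042376-51043406, in band 22q13.33 and 169 kb from the last position. Its level was intermediate and stable, 58.9% ± 3.37 (SD, n = 23), with a lowest value of 54.3%, a median of 58.4% and a highest of 68.2%. The highest value was that of left 3, which had values at 22.4% of the positions. The third, with 158 positions in 699 bp of band 8q24.3 and 1861 kb from the last position, was methylated throughout, from 82.5% through 85.1% to 87.6%. These 3 runs differed from each other by far more than any of them varied over monkeys.

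The 9 long runs over 80% lay on 6 chromosomes, 4 of them on chromosome 8. The largest of the others has 122 positions at chr22:50615465-50616142 (22q13.33), and its level ran from 76.9% through a median of 86.4% to 89.4%. In band 20q13.33, 89 positions at chr20:62493232-62493826 ran from 81.3% through 84.7% to 93.8%. In band 19q13.43, in the part of chromosome 19 known for clusters of zinc-finger genes, 85 positions at chr19:57133325-57134085 ran from 79.2% through 83.2% to 88.4%. Band 14q32.33 held 59 positions at chr14:105609012-105609517, which ran from 74.0% through 81.8% to 87.8%. In band 2q37.3, 53 positions at chr2:242572322-242572702 had a value in 20 monkeys and ran from 86.9% through 88.9% to 90.5%. The highest values on chromosomes 20, 19 and 14 were those of left 3 or right 9, which had values at 34.8%, 41.2% and 30.5% of these positions. The lowest level of any monkey in any of the 9 runs was 74.0%.

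Levels at the ends varied between monkeys as much as elsewhere once level and density were both matched. The mean SD over monkeys was 6.68 points at the ends and 6.72 at positions of like density and level. Matched for density alone, the ends had the larger SD, 6.68 against 5.78 points. They also hold more positions between 20% and 80% and over 80%, and fewer under 20%. How much of the larger SD goes with these shares was not tested. Members under 20% had a mean SD of 2.96 points and those over 80% one of 7.10 points. Members with levels between 20% and 80% had a mean SD of 15.4 points, as had their matched positions. An SD over 20 points was found at 1038 members, or 5.14%, against 4.94% of matched positions. Positions 1 bp apart, as the cytosines on the opposite strands of a CpG lie, differed by 7.75 points on average at the ends and by 7.42 in matched pairs. These values describe positions and were not tested.

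The most variable runs of at least 10 positions included values that rest on few positions. In band 2q37.3, 20 positions at chr2:242756134-242756305 averaged 54.6% ± 18.3 (SD, n = 22), with a median of 56.9% and a highest value of 76.8%. The lowest value, 0 in right 9, rests on 10% of the positions, and the next lowest was 29.1%; without left 3 and right 9 the SD was 14.0. In band 15q26.3, 14 positions at chr15:101169707-101169831 averaged 48.3% ± 16.5 (SD, n = 23), from 0 in right 9, with values at 50% of the positions, to 71.1%; without the same libraries the SD was 13.2. In band 21q22.3, 13 positions at chr21:47808673-47808811 averaged 77.1% ± 18.3 (SD, n = 20). There right 12 stood at 0 with values at 7.69% of the positions, and every other monkey stood between 76.5% and 84.6%. The run of chromosome 21 was thus stable apart from 1 thinly measured value.

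The central question of the study was whether methylation follows anxious temperament, with age as the covariate. The difference between long-arm ends and matched positions showed no slope with the score beyond its error: 0.00691 ± 0.133 points per score unit (SE, n = 23; 95% interval -0.271 to 0.285), against a mean difference of 9.89 points. The level of the ends themselves changed by -0.117 ± 0.540 points per score unit (SE, n = 23; 95% interval -1.24 to 1.01). Within the monkeys whose identifiers start with r the slope of the difference was -0.100 ± 0.317 (SE, n = 12), and within those starting with B it was 0.0947 ± 0.109 (SE, n = 11). Among the 22 chromosomes 11 slopes were positive and 11 negative, from -0.740 on chromosome 6 to 0.617 on chromosome 11, and the 95% interval held 0 on each of them.

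**Figure D5:**
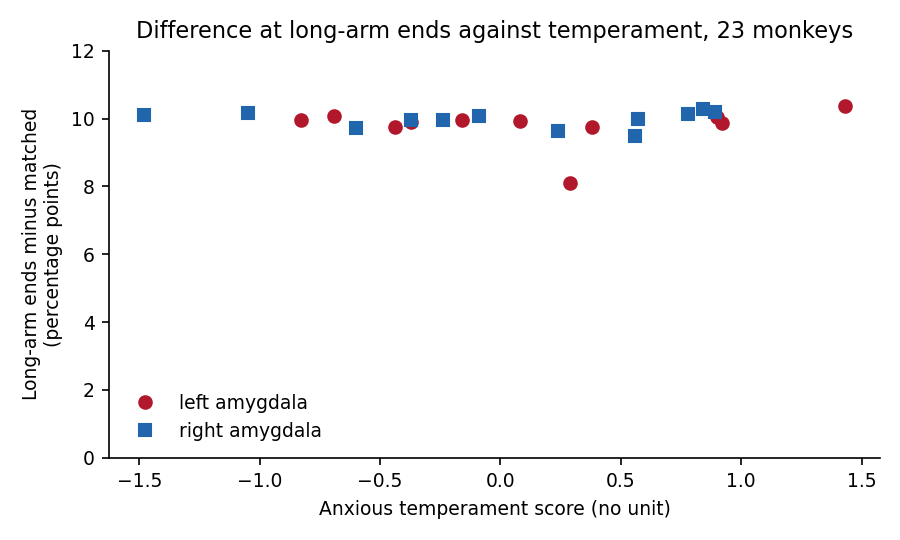
Long-arm ends minus density-matched positions (percentage points) against the anxious temperament score (no unit), 1 point per monkey, left amygdala as circles and right as squares. Points lie near 10 over the whole range of the score, apart from left 3 at 8.11.

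For single positions the whole table was fitted with limma and p-values were adjusted over all 192151 tested positions, by the Benjamini-Hochberg method. Of the members, 9996 passed the filter on missing values and range. None was called for the score at an adjusted p under 0.05 (background 0%; smallest limma adjusted p among members 1). At an unadjusted p under 0.05 there were 294 members (2.94%, background 3.12%). Under 0.01 there were 46, 22 with a positive and 24 with a negative slope. That is 0.460% of the tested members, against a background of 0.508% of all tested positions. The median slope was 0.07 points per score unit over members and 0.09 over all tested positions.

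The 3 members with the smallest p for the score lie in bands 14q32.33 and 10q26.3. At chromosome 14, 104618785, levels spanned 0 to 100% with a median of 72.5%. They averaged 36.0% ± 33.8 (SD, n = 11) in monkeys with negative scores and 88.6% ± 20.7 (SD, n = 11) in those with positive scores. The groups overlapped, since left 10 (score -0.83) stood at 100% and right 6 (score 0.57) at 42%. Each score unit went with 33.4 ± 8.13 points (SE, n = 22; a limma adjusted p of 1). At chromosome 10, 135143943, the level ran from 20% through 55.5% to 86% with a slope of 19.0 ± 4.76 points per score unit (limma adjusted p = 1, SE, n = 20). At chromosome 14, 105614701, in the same band as the first, a high level of 78% to 100% with a median of 92% had a slope of -5.26 ± 1.35 (SE, n = 21; limma adjusted p = 1).

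Averaging over runs gave the same picture. Of the 1306 runs at the ends 888 were tested, among 21253 in the table, and 0 were called for the score (background 0%). At an unadjusted p under 0.05 there were 35, or 3.94%, against a background of 3.20%. Under an unadjusted p of 0.01 there were 7, or 0.788%, against a background of 0.471%. The leading one, 6 positions at chr11:134257669-134257766 (11q25), lies within the last 50 kb of its chromosome's measured span. Its level ran from 69.7% in left 10 through a median of 87.5% to 100%. Left 3, right 8, left 11 and right 12 stood at 100%, which in left 3 rests on 16.7% of the positions. Monkeys with negative scores averaged 81.3% ± 6.17 (SD, n = 11) and those with positive scores 92.9% ± 5.99 (SD, n = 11), and their ranges overlapped. Each score unit went with 7.59 ± 1.78 points (SE, n = 22), at a limma adjusted p of 1. A run of 4 positions in band 8q24.3, 673 kb from the last position, ran from 25% through 69% to 88%, with a slope of 15.5 ± 3.90 (SE, n = 20; limma adjusted p = 1). At chr9:140570077-140570329 (9q34.3), a run of 8 positions ranged from 22.3% through 57.6% to 76%, with a slope of 6.94 ± 2.13 (SE, n = 23; limma adjusted p = 1). The lowest value there, in right 2, rests on 37.5% of the positions, and without right 2 the slope was 4.50.

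Age, the covariate, called 1 member among 102 positions called in all (background 0.0531%). At an unadjusted p under 0.01 there were 92 members, or 0.920%, against 1.09% of all tested positions. The called member, at chromosome 11, 133540558 (11q25), had a median level of 88% and ran from 69% to 97%. Per year it changed by -20.0 ± 3.81 points (SE, n = 22; limma adjusted p = 0.0448). The low value was that of left 1, the oldest monkey at 2.13 years; the next lowest was 84%. Without left 1 the slope was -14.0 and the call ended (limma adjusted p = 1). With 1 monkey left out at a time, the limma adjusted p ran from 0.0407 to 1 and the call held only without left 3, left 4, right 7 or left 9. At chromosome 9, 139384785 (9q34.3), left 1 stood at 10% and the next lowest monkey at 67%, with a median of 95% (slope -63.6 ± 12.6 per year, SE, n = 23; limma adjusted p = 0.0567). Leaving out left 1 brought it to -6.51 ± 15.3 points per year, at a limma adjusted p of 1. At chromosome 19, 57946965 (19q13.43), left 1 stood at 17% and every other monkey at 3% or less (slope 12.5 ± 2.50 per year, SE, n = 22; limma adjusted p = 0.0642). At all 3 of these members left 1 was thus alone at one extreme.

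No run at the ends was called for age, where 12 were called in all (background 0.0565%). At an unadjusted p under 0.05 there were 35 end runs (3.94%, background 4.81%). Of the tested end runs, 11 had an unadjusted p under 0.01 (1.24%, background 1.17%). The leading one, 5 positions in band 8q24.3 that lie 1558 kb from the last position, ran from 6.6% through 22.1% to 50.2% in left 1, and the next highest monkey stood at 44.2%. Each year went with 34.2 ± 6.95 points (SE, n = 20), at a limma adjusted p of 0.0915. The run at chr9:139384725-139384870 holds the chromosome 9 member just described and had its lowest value, 43.4%, in left 1, with a median of 75.5% (slope -27.3 ± 6.81, SE, n = 23; limma adjusted p = 0.292). Leaving out left 1 brought its slope to -8.97. At chr17:79103109-79103245 (17q25.3), left 1 stood at 60% with values at 25% of the positions, and the other monkeys stood at 21% or less (slope 36.9 ± 9.53, SE, n = 22; limma adjusted p = 0.317). Without left 1 that slope was -9.19.

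The hemispheres did not differ in the level of the ends beyond the spread between monkeys. Left ends averaged 37.1% ± 2.16 (SD, n = 11) and right ends 37.0% ± 1.57 (SD, n = 12), with overlapping ranges. Over matched positions the excess was 9.80 ± 0.584 points on the left (SD, n = 11) and 9.98 ± 0.241 on the right (SD, n = 12). Adjusted for score and age, it was 0.187 ± 0.194 points larger in right samples (SE, n = 23; 95% interval -0.219 to 0.593). No member was called (limma, adjusted p under 0.05, background 0%). At an unadjusted p under 0.05 there were 354 members (3.54%, background 3.48%). At an unadjusted p under 0.01 there were 66 members, 31 higher in right samples and 35 lower, which is 0.660% against a background of 0.506%.

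The members leading for hemisphere overlapped between sides. At chromosome 20, 62663339 (20q13.33), the left mean was 87.2% ± 4.85 (SD, n = 10; 78% to 95%) and the right mean 94.2% ± 3.21 (SD, n = 12; 88% to 100%), with a limma adjusted p of 0.930. At chromosome 9, 140227067 (9q34.3), the means were 89.9% ± 5.75 (SD, n = 11) and 97.6% ± 3.82 (SD, n = 12; limma adjusted p = 0.930). At chromosome 21, 47565801 (21q22.3), the left mean of 78.5% ± 14.6 (SD, n = 10) stood above the right one of 42.4% ± 26.1 (SD, n = 12, limma adjusted p = 0.930). Left values ran from 55% to 100%. Right 12 at 100%, right 3 at 75% and right 10 at 56% lay within that range, and right 9 was lowest at 0.

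The run of this chromosome 21 member, 25 positions at chr21:47565767-47565894, was among the 3 leading runs as well. Its left mean was 69.5% ± 10.1 (SD, n = 11), within 48.8% to 83.5%, and its right mean 51.6% ± 15.4 (SD, n = 12), within 30.3% to 76.5%. Right minus left was -16.5 ± 4.81 points after adjustment (SE, n = 23; limma adjusted p = 0.975). The highest left value, in left 3, rests on 24% of the positions. At the 8 positions of chr9:139557215-139557321 the left mean was 71.7% ± 4.88 (SD, n = 11) and the right mean 78.2% ± 3.82 (SD, n = 12). The 6 positions of chr10:135084727-135084803 had means of 62.4% ± 6.69 (SD, n = 11) and 70.2% ± 5.30 (SD, n = 12). Both had a limma adjusted p of 0.975. No end run was called for hemisphere by limma (background 0%). Of the tested end runs, 32 had an unadjusted p under 0.05 (3.6036%, background 3.11956%). Those with a p under 0.01 before adjustment numbered 7 (0.788%, background 0.471%).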

How the data were processed

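Per the submitters' processing notes, Bismark 0.11.1 and the human build hg19 were used; per the labels' protocols, DNA was cut with MspI. The authors deposited methylation levels as a fraction from 0 to 1 without read counts, so depth is unknown and no interval for it was computed; for coverage filters and strand handling, the sources used here give nothing. Macaque reads on human coordinates may miss or misread sites that differ between the species. Fractions were multiplied by 100.

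Members and lists were chosen with earlier results of these data known. Matching used 12 classes of the number of other measured positions within 200 bp: the mean of the other positions of a chromosome was taken per class and weighted by the members' counts, for each monkey over its own values. Differences per monkey were tested by sign flips (100000). The comparison with other 2 Mb windows, over levels averaged across monkeys, was added after seeing the data.

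In limma 3.58.1 (R 4.3.3), positions measured in 20 or more monkeys whose values spanned 10 points or more (runs: 5 points, plain mean of the values present) were modelled with a variance trend on the mean level, on score and age, with hemisphere added for its own test. Slopes over all members carry no p. Both steps were tested on simulated data. Named are the 3 positions and 3 runs with the smallest p per term, the 3 chromosomes with the largest and the 3 with the smallest difference, the 3 runs with most positions and the 3 most variable runs. The 9 long runs over 80% were chosen after their values were seen. Bands came from circlize 0.4.16. Scripts ran in Python 3.11.15. No gene annotation or sequence of hg19 was used here, so genes and sequences are not given. Nothing says that libraries share a batch, and identifier series (r or B) was used only as a check.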

Additional observations from a re-analysis of the deposited data

How the results depend on the processing

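The excess at long-arm ends stayed positive in every setting run: from 7.00 (ends of 5000000 bp) to 13.7 points (ends of 500000 bp) over 12 other settings, from 9.87 to 9.97 with single monkeys left out, and from 8.56 (without chromosome 8) to 10.9 points (without chromosome 9) with single chromosomes left out, a check added after seeing the data. Chromosomes with a higher end numbered 18 for ends of 1000000 bp, 19 at complete positions, 20 for ends of 5000000 bp and 22 for ends of 500000 bp. The excess over short-arm ends ran from 6.55 to 6.62 points with single monkeys left out and was 2.80 for ends of 5000000 bp. The SD over monkeys differed by 0.899 points from matched positions with density matching alone, and by -0.0488 to -0.0267 with single monkeys left out. The score slope of the excess ran from -0.0598 to 0.0446.

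No score or hemisphere call appeared at the ends under any alternative run. Called members for age numbered 0 on the logit scale, 3 with a range of at least 5 points, 0 with at least 20 points, 0 with the identifier series and 0 with hemisphere added. Leaving out 1 monkey gave 0 to 4: 0 without left 1 and most others, 1 without left 4 or left 9, 2 without left 3 or right 7, 3 without right 2 and 4 without right 3. At an unadjusted p under 0.01, score positions numbered 26 with a range of at least 20 points and 30 to 55 with single monkeys left out; hemisphere positions 45 to 83; age positions 46 on the logit scale and 40 to 98. For runs these were 3 to 8 for score and 3 to 10 for hemisphere. For age they were 7 on the logit scale, 6 with the identifier series and 3 to 15. The number tested changes with the range filter and with the monkeys left out. These counts are therefore not shares and were not set against a background. The age slope of the run on chromosome 17 ran from -9.18829 without left 1 to 42.8043 without right 11. Causes were not tested. Of 452 alternatives run for the named positions and runs, 421 kept direction and side of the threshold. Only 1 named position or run was under the threshold in the main fit, so for the others this asks for little more than the same sign. It does not measure the size: at chromosome 9, 139384785, the age slope went from -63.6 to -6.51 without left 1 and counts as kept. Positions with 20 values could not be fitted without a monkey that had one. A coverage minimum was not run, since depth is unknown. No paired analysis was possible because left and right samples came from different monkeys, whose numbers pair nothing.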
